A study of Drosophila melanogaster with 4 samples.

Results

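The regions described here are the stretches of chromosome arm 3R enriched for HP1b, without the centromeric 2 Mb of the arm. They are the enriched regions whose midpoint lies above position 2000000 on 3R (FlyBase release 5), where the centromere is at the low-coordinate end. The series-wide list held 1514 such regions of 9130 in all, the list of HP1b ChIP replicate 1 held 961 of 5248 and the list of HP1b ChIP replicate 2 held 893 of 4633. The stretch of arm they lie on is 25.9 Mb long. The study measured HP1b binding by chromatin immunoprecipitation and sequencing (ChIP-seq) with antibody Q4114 in wild-type Oregon-R embryos, a standard laboratory strain of Drosophila melanogaster, aged 14 to 16 h. There were 2 HP1b ChIP libraries and 2 Input libraries of the same strain, genotype and age, each Input library being the reference of the ChIP library with its number. Chromatin came from whole embryos of population cages, so each list averages over all cell types of the embryo. No treated or mutant group exists in the series. Whether the 2 replicates are separate embryo collections is not stated in the labels, and the spread between them may thus be technical.

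HP1b belongs to the Heterochromatin Protein 1 family. Proteins of this family bind methylated histone tails through a chromodomain and dimerise, and recruit partners, through a chromoshadow domain. In Drosophila the family member HP1a is best known from heterochromatin, HP1c from euchromatin, and HP1b from both. 3R beyond its centromeric end is a largely euchromatic, gene-rich arm.

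Each region carries a score from the authors that the labels and file headers do not define, so scores are the authors' own values on the scale of each list. The lists hold no read counts, and the depth behind a region is unknown. A region at the 2 Mb boundary was present in all 3 lists just outside it, at 1995716 to 1997608 in the series-wide list with a score of 0.20. The first series-wide region inside lay at 2023616 to 2025152 with a score of 0.36, so the boundary divided no region.

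HP1b regions on 3R were short, numerous and mostly found at the same places in both replicates. Of the 961 replicate 1 regions, 767 (79.8%, 95% Wilson interval 77.2 to 82.2%) shared at least 1 bp with replicate 2, against 74.5% of the whole replicate 1 list. Of the 893 replicate 2 regions, 781 (87.5%, 95% Wilson interval 85.1 to 89.5%) overlapped a replicate 1 region, against 85.9% of the whole replicate 2 list. The intervals are for counting error alone and take regions as independent. Of the bases in replicate 1 regions, 76.9% were also in replicate 2 regions, and of the bases in replicate 2 regions 86.6% were also in replicate 1 regions. The 2 replicates shared 1789 kb of the 2602 kb covered in either, a Jaccard index of 0.688.

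The matched regions coincided closely. There were 783 overlapping pairs, of which 748 joined 1 region of each replicate and nothing else. In these 748 pairs the midpoints lay a median of 68.8 bp apart, and 705 pairs (94.3%) had midpoints within 500 bp of each other. The starts differed by a median of 87.0 bp and the ends by 90.0 bp, which is small beside the median widths of 2292 bp in replicate 1 and 2200.5 bp in replicate 2. In 421 pairs (56.3%) the shorter region lay wholly inside the longer. Replicate 1 had the wider region in 490 pairs (65.5%), with a median width difference of 84.0 bp (replicate 1 minus replicate 2). The remaining pairs were regions that 1 replicate joined and the other divided. Of these, 16 replicate 1 regions spanned more than 1 replicate 2 region, and 2 replicate 2 regions spanned more than 1 replicate 1 region.

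Scores of the paired regions followed each other, with a Pearson r of 0.88 and a Spearman rho of 0.82 over the 783 pairs, which lie on the same arm in the same 2 libraries and are not independent. In the one-to-one pairs the score difference (replicate 1 minus replicate 2) had a median of 0.03 and an SD of 0.18, and 538 pairs (71.9%) were within 0.2 of each other. The difference was not the same along the range of scores. Among the 195 pairs with the highest mean score, the median score was 1.41 in replicate 1 and 1.24 in replicate 2, and replicate 1 was the higher in 163. Among the 196 pairs with the lowest mean score the medians were 0.48 in replicate 1 and 0.55 in replicate 2, and replicate 1 was the higher in 62. Each list has its own unknown scaling, and whether scaling has a part in this was not tested.

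**Figure D1:**
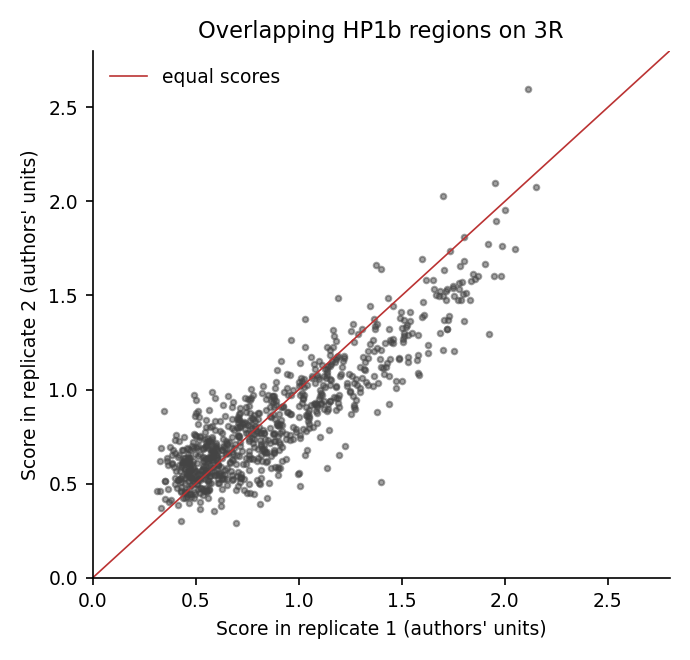
Scores of the 783 overlapping pairs of HP1b regions on 3R, with the replicate 1 score on the x axis and the replicate 2 score on the y axis, both in the authors' units. Each point is a pair and the line marks equal scores. Points at the top of the range lie mostly below the line, as in 163 of the 195 highest-scoring pairs.

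Regions without a partner were the low-scoring and narrow ones. In replicate 1 the 194 unpartnered regions had a median score of 0.48 and a median width of 1754 bp, whereas the 767 with a partner had medians of 0.78 and 2298 bp. In replicate 2 the 112 unpartnered regions had medians of 0.58 and 1534 bp, whereas the 781 with one had 0.77 and 2201 bp. With each list divided by score into 4 classes of equal size, the share of replicate 1 regions with a partner was 52.7% in the lowest class (95% Wilson interval 46.4 to 58.9%), 70.0% in the next (95% Wilson interval 63.9 to 75.4%), 96.7% in the one above (95% Wilson interval 93.6 to 98.3%) and 240 of 240 in the highest. In replicate 2 it was 75.4% (95% Wilson interval 69.4 to 80.6%), 78.9% (95% Wilson interval 73.1 to 83.8%), 95.5% (95% Wilson interval 91.9 to 97.5%) and 223 of 223. Width divided the regions further than score did at the low end. With 4 classes by width, 41.9% of the narrowest class of replicate 1 regions had a partner (95% Wilson interval 35.9 to 48.2%), and 60.7% of the narrowest class of replicate 2 regions did (95% Wilson interval 54.2 to 66.9%). Score and width are tied within each list, with a Spearman rho of 0.79 over replicate 1 regions and 0.78 over replicate 2 regions.

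**Figure D2:**
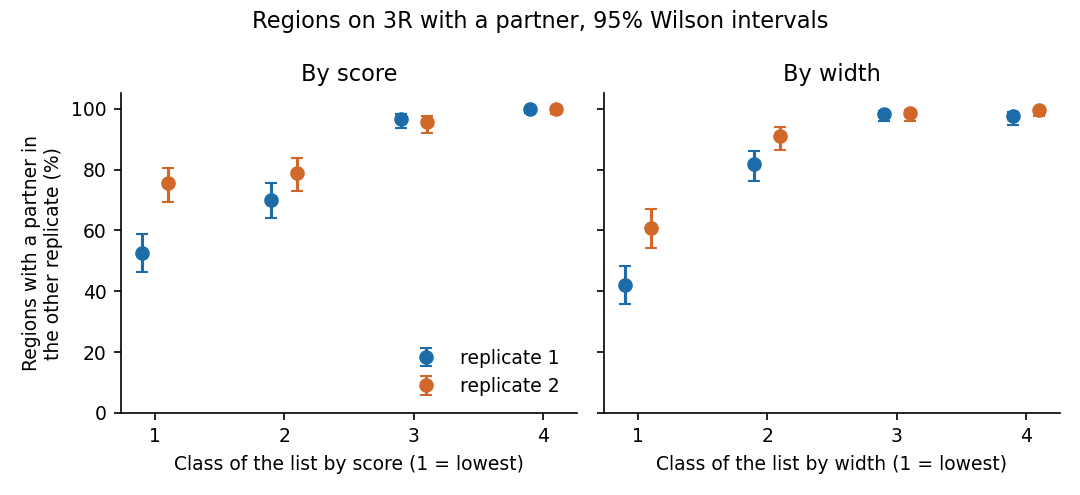
Percent of HP1b regions on 3R that overlapped a region of the other replicate (y axis), in 4 equal classes of each list ranked by score (left) or width (right), with points for the share and bars for 95% Wilson intervals. Every region of the highest-scoring class had a partner, and 41.9% of the narrowest class of replicate 1 did.

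The strongest region without a partner was therefore far down each list. In each replicate 311 regions of 3R scored above the first one that the other replicate lacked. In replicate 1 this was the region at 20751834 to 20753970 with a score of 0.89, followed by 12471802 to 12474286 with 0.87 and 11730752 to 11732691 with 0.79. In replicate 2 it was the region at 26084280 to 26086392 with a score of 0.86, followed by 24204046 to 24205428 with 0.82 and 2641230 to 2643460 with 0.81. Of these 6 regions, the one at 24204046 to 24205428 was also missing from the series-wide list. Some regions without a partner stood near one of the other replicate. Of the 194 in replicate 1, 91 (46.9%) lay within 5 kb of a replicate 2 region, and of the 112 in replicate 2, 43 (38.4%) lay within 5 kb of a replicate 1 region. How much of the arm lies within 5 kb of a region was not measured. These shares thus have no background and show no trait of the unpartnered regions.

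Among paired regions, the largest score difference was at 19606140 to 19610455 in replicate 1 (score 1.40) and 19609077 to 19610787 in replicate 2 (score 0.51). Replicate 2 divided this place into 2 regions, and the other one, which began at 19606080, scored 1.64, above replicate 1. The third largest difference was also at a divided place, 18549275 to 18553713 in replicate 1 (score 1.14), where replicate 2 had a region of 1944 bp with a score of 0.58 and a second, begun at 18551197, with a score of 1.22. The difference at these 2 places thus turned on which replicate 2 region was paired. In the other 3 of the largest 5 differences each replicate had 1 region, the replicate 2 region lay wholly inside that of replicate 1, and the replicate 1 score was the higher, as at 5625638 to 5628029, with a score of 1.92 in replicate 1 and 1.30 in replicate 2.

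The series-wide list added many regions to those of the replicates. It overlapped every replicate 1 region of 3R and 882 of the 893 replicate 2 regions. Of its 1514 regions on 3R, 755 (49.9%, 95% Wilson interval 47.4 to 52.4%) overlapped both replicates, against 41.9% of the whole series-wide list, and these 755 are called the reproducible set. Another 192 (12.7%) overlapped replicate 1 alone, 98 (6.47%) replicate 2 alone and 469 (31.0%, 95% Wilson interval 28.7 to 33.4%) neither. Without their centromeric 2 Mb, 2L, 3L and X had 32.6%, 31.1% and 32.8% in neither. Replicate 1 alone had 12.9%, 14.4% and 14.3% there, and replicate 2 alone 5.29%, 6.22% and 6.15%. The 3R regions in neither had a median width of 1335 bp and a median score of 0.37, whereas the reproducible set had medians of 2521 bp and 0.71. Of the 469, 227 were narrower than the narrowest region of either whole replicate list. On the other arms these were 206 of 394 on 2L, 212 of 435 on 3L and 274 of 533 on X.

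A few of the series-wide regions in neither replicate scored very high. The highest-scoring series-wide region of 3R, at 8295732 to 8296734 with a score of 3.33, was one of them, and so was the next, at 8299754 to 8300754 with 3.16. They are 1003 and 1001 bp wide and lie 3.02 kb apart. The third, at 4723896 to 4724896, scored 2.49. Examined after these values were seen, 6 of the 469 scored 1 or more, and the other 463 scored 0.78 or less. Of those 6, 5 were narrower than any replicate region, with a median width over all 6 of 1003 bp. The 4 highest scored above every region of the reproducible set, whose top score was 2.08. Such regions were not confined to 3R. In the whole series-wide list of 9130 regions, 174 in neither replicate scored 1 or more, and 59 reached that top score or more. Both counts are larger shares of the list than the 6 and the 4 are of the 1514 series-wide regions on 3R. The highest score of a region in neither replicate was 2.62 on 2L, 3.16 on 3L and 2.01 on X. The narrowest series-wide region was 1001 bp wide on each of 3R, 2L, 3L and X.

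The strongest reproducible regions of 3R were high in both replicates. The highest-scoring lay at 9226180 to 9230214 (series-wide score 2.08), with a score of 2.11 in replicate 1 and 2.60 in replicate 2. In replicate 2 it was the strongest region of 3R and began at 9227798, some way inside the replicate 1 region, with a width of 2403 bp. The second, at 12059370 to 12064198 (series-wide score 2.03), had scores of 2.15 in replicate 1, the strongest there, and 2.08 in replicate 2. The third, at 22013456 to 22016060 (series-wide score 1.96), had 1.95 in replicate 1 and 2.10 in replicate 2. The next 7, in order of series-wide score, began at 9484982, 24982202, 5164484, 4501356, 13525036, 21471604 and 7386606, with scores from 1.84 to 1.72. These 10 were scattered between 4.5 Mb and 25 Mb of the arm and had 1 region in each replicate. The replicates shared much of the top of their lists. Of the 10 highest-scoring regions of 3R in replicate 1, 7 overlapped 1 of the 10 highest in replicate 2, and of the top 50 and the top 100, 40 and 78 did.

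The quartiles of width on 3R lay close together. The full range was 1301 to 10164 bp in replicate 1 and 1303 to 6623 bp in replicate 2. The median was 2200 bp in replicate 1 (quartiles 1933 and 2600 bp) and 2149 bp in replicate 2 (quartiles 1855 and 2497 bp), a mean of 2174.5 bp ± 36.1 (SD, n = 2). Regions of 5 kb or more made up 22 of the replicate 1 regions (2.29%), 14 of the replicate 2 regions (1.57%) and 43 of the reproducible set (5.70%). The reproducible set keeps the series-wide boundaries, which join neighbouring replicate regions. Of its 43 regions of 5 kb or more, 21 held more than 1 region of a replicate. Their median score was 0.91, and that of the narrower reproducible regions 0.70.

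The widest region, at 12030432 to 12041854, measured 11423 bp and scored 0.83. In replicate 1 it was a single region of 10164 bp, the widest of 3R in that list, and in replicate 2 it was 2 regions, the wider of 5366 bp. The second widest, at 12072486 to 12083164 (10679 bp, series-wide score 1.20), was 2 regions in each replicate, as were 6207442 to 6216928 (9487 bp, series-wide score 1.38) and 6086528 to 6095926 (9399 bp, series-wide score 0.96). The fifth, at 6706254 to 6715266 (9013 bp, series-wide score 1.00), was a single region of 8148 bp in replicate 1 and 2 regions in replicate 2. The 5 widest thus lay in 2 neighbourhoods, one with starts from 6086528 to 6706254 and the other with starts at 12030432 and 12072486. Their scores were from 0.83 to 1.38, below all 10 of the strongest regions.

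Along the arm, cover varied more between places than between replicates. HP1b regions covered 8.97% of the stretch in replicate 1 and 7.97% in replicate 2 (8.47% ± 0.707, SD, n = 2), with 37.1 and 34.5 regions per Mb. In 26 consecutive windows of 1 Mb, the last of 905 kb, cover ranged from 5.67% to 13.9% in replicate 1 (median 8.60%) and from 5.03% to 13.4% in replicate 2 (median 7.86%). The SD of the window means along the arm was 2.07 percentage points, and the median SD between the replicates within a window was 0.635 points. Window cover in the replicates had a Pearson r of 0.97 and a Spearman rho of 0.95 over the 26 windows, a description of windows that share libraries. Replicate 1 was the higher in 26 of 26 windows.

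The most covered window was 5 to 6 Mb, with 13.9% in replicate 1 and 13.4% in replicate 2 (13.6% ± 0.359, SD, n = 2) and 59 regions in each. The window before it, 4 to 5 Mb, came second with 11.5% ± 0.902 (SD, n = 2), followed by 19 to 20 Mb with 10.9% ± 1.08 (SD, n = 2), a value that 7 to 8 Mb, 14 to 15 Mb and 12 to 13 Mb match within the replicate spread. The least covered were 26 to 27 Mb with 5.38% ± 0.404 (SD, n = 2), 23 to 24 Mb with 5.61% ± 0.822 (SD, n = 2) and 22 to 23 Mb with 6.12% ± 0.190 (SD, n = 2). Neighbours in this order overlapped in their replicate values, while the first and the last of the 3 did not. The window 3 to 4 Mb, near the centromeric end of the stretch, came next with 6.23% ± 0.0105 (SD, n = 2). Both its replicate values lay between those of 22 to 23 Mb. The window 6 to 7 Mb, next to the most covered one, had only 6.76% in replicate 1 and 6.70% in replicate 2. In 3 equal parts of the stretch, cover was 9.59%, 9.01% and 8.32% in replicate 1 and 8.71%, 7.83% and 7.38% in replicate 2, going away from the centromere. Windows thus differed more than these parts did. The share of regions with a partner was 81.4%, 78.1% and 79.8% in the 3 parts for replicate 1 and 87.6%, 87.2% and 87.6% for replicate 2, with no steady direction along the arm.

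**Figure D3:**
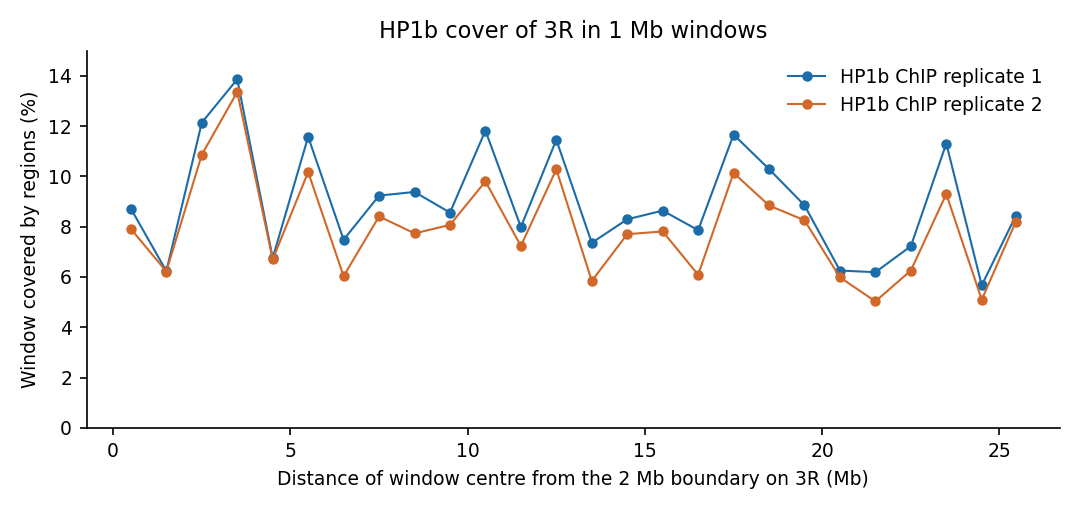
Percent of each 1 Mb window of 3R covered by HP1b regions (y axis) against the distance of the window centre from the 2 Mb boundary (x axis, Mb), with 1 point per window and replicate. Both replicates peak in the same window, at 13.9% and 13.4%, and replicate 1 lies above replicate 2 in 26 of 26 windows.

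Spacing was uneven, with many short gaps and a smaller number of very long ones. The median gap between neighbouring regions was 8.90 kb in replicate 1 and 10.6 kb in replicate 2 (9.75 kb ± 1.21, SD, n = 2), and the mean gaps were 24.4 and 26.7 kb. In replicate 1 52.4% of gaps were 10 kb or less and 13.1% were over 50 kb, and in replicate 2 these shares were 48.7% and 15.4%. In the reproducible set the median gap was 11.6 kb, the mean 31.1 kb and the longest 335 kb. Only 21 of its 755 regions had no neighbour within 50 kb. These isolated regions were not weak, with a median score of 0.83 and a highest of 1.59.

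**Figure D4:**
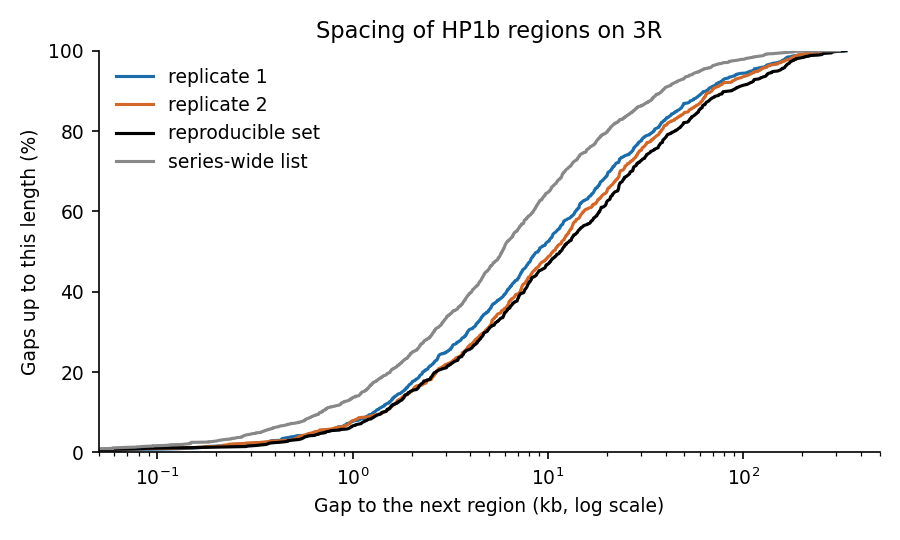
Cumulative percent of gaps (y axis) up to a given length (x axis, kb, log scale) between neighbouring HP1b regions on 3R, with 1 line per list. The replicate lines run close together, with medians of 8.90 and 10.6 kb, and the series-wide line lies to their left with a median of 5.82 kb.

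Joining reproducible regions with gaps of at most 10 kb gave 402 chains, of which 218 held 1 region, 98 held 2, 44 held 3 and 20 held 4. The remaining 22 chains, of 5 regions or more, are called dense groups and held 129 of the 755 regions (17.1%). Regions in dense groups had a median score of 0.74 and a median width of 2603 bp, and those outside 0.69 and 2499 bp. By the same rule replicate 1 had 35 groups and replicate 2 had 34. Of the 35, 24 (68.6%) overlapped a group of replicate 2, and of the 34, 24 (70.6%) overlapped a group of replicate 1. Replicate 1 regions had a partner in 86.4% of cases within its groups (95% Wilson interval 81.2 to 90.4%) and in 77.9% outside (95% Wilson interval 74.8 to 80.7%). In replicate 2 the shares were 90.0% (95% Wilson interval 85.1 to 93.4%) and 86.7% (95% Wilson interval 84.0 to 89.0%), whose intervals overlap. A partner needs an overlap of only 1 bp, which position alone may give more often where regions stand close together. That part was not measured, so these shares do not rank the regions by reproducibility.

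The largest dense group spanned 53.0 kb at 8226598 to 8279594, with 9 reproducible regions covering 47.3% of it and 10 regions in each replicate. Its regions were of middling score, from 0.37 to 1.01 on the series-wide scale. The 2 very high-scoring narrow regions found in neither replicate began 16.1 kb beyond its end. The next had 8 regions in 42.0 kb at 5375982 to 5418014, with a median series-wide score of 0.82 and 8 regions in each replicate. With 7 regions each there were 4 groups, at 5564834 to 5604814, 7021772 to 7071146, 23063516 to 23116544 and 24937384 to 24984950. The last of these ended with the fifth strongest reproducible region of 3R.

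The most heavily covered group was that at 12030432 to 12083164. Its 6 reproducible regions covered 76.6% of 52.7 kb, and the replicates covered 68.4% of it with 7 regions and 69.1% with 8. It held the widest and the second widest region of the set at its edges and the second strongest in the middle. In order along the arm, its regions scored 0.92, 1.69, 0.67, 2.15, 1.51 and 1.55 in replicate 1. In replicate 2 they scored 0.91, 1.52, 0.52, 2.08, 1.25 and 1.30, and replicate 1 was thus the higher in all 6. Where a reproducible region held 2 regions of a replicate, the higher score is given. The other pair inside the last region went the other way, with 0.94 in replicate 1 and 1.08 in replicate 2.

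Long empty runs took up much of the arm. The reproducible set left 66 runs of 100 kb or more, which together made up 11.1 Mb (42.9% of the stretch). In replicate 1 there were 55 such runs (34.0% of the stretch), the longest of 335 kb, and in replicate 2 there were 58 (35.1%), the longest of 291 kb. The runs recurred. Of the replicate 1 runs, 46 shared at least 50% of both lengths with a replicate 2 run. The bases in runs of both replicates came to 7.14 Mb, which is 81.2% of the run bases of replicate 1 and 78.5% of those of replicate 2.

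Few of the 66 runs were empty in every list. Of them, 6 held no region of any list, 19 held no replicate region, and 60 held at least 1 series-wide region outside the reproducible set. The longest run, 335 kb at 23815817 to 24151207, held no replicate 1 region and 1 replicate 2 region, with a score of 0.54. The second, 307 kb at 6715267 to 7021771, likewise held none of replicate 1 and 2 of replicate 2. The third, 290 kb at 23116545 to 23406225, held 4 regions of replicate 1 and none of replicate 2, so the replicates differed in opposite directions in these places. The fourth, 285 kb at 6216929 to 6502265, held 3 regions of each replicate at different positions, and 17 series-wide regions. The fifth, 283 kb at 19211777 to 19494425, held 2 regions of replicate 1 and none of replicate 2. It also held the narrow series-wide region at 19341432 to 19342434, with a score of 1.90. With the regions of all 3 lists merged, the longest stretch without a region measured 219 kb, at 16155197 to 16374229.

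Dense groups and long runs stood side by side in some places. Of the 22 dense groups, 10 bordered a run of 100 kb or more on at least 1 side. The same share was not taken for the other chains, so this count shows no trait of dense groups. Of the 42 gaps that flank the groups, each counted once, 11 (26.2%) were that long, and of all 401 gaps over 10 kb in the reproducible set 65 (16.2%) were, with no test of this difference. The clearest case lay between 6.2 and 7.1 Mb. There the third widest region was followed by the 285 kb run, a stretch of scattered regions, the fifth widest region and the 307 kb run, which ended at the dense group of 7 regions at 7021772 to 7071146. A further gap of 164 kb divided this group from the next one, at 7234660 to 7274540.

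**Figure D5:**
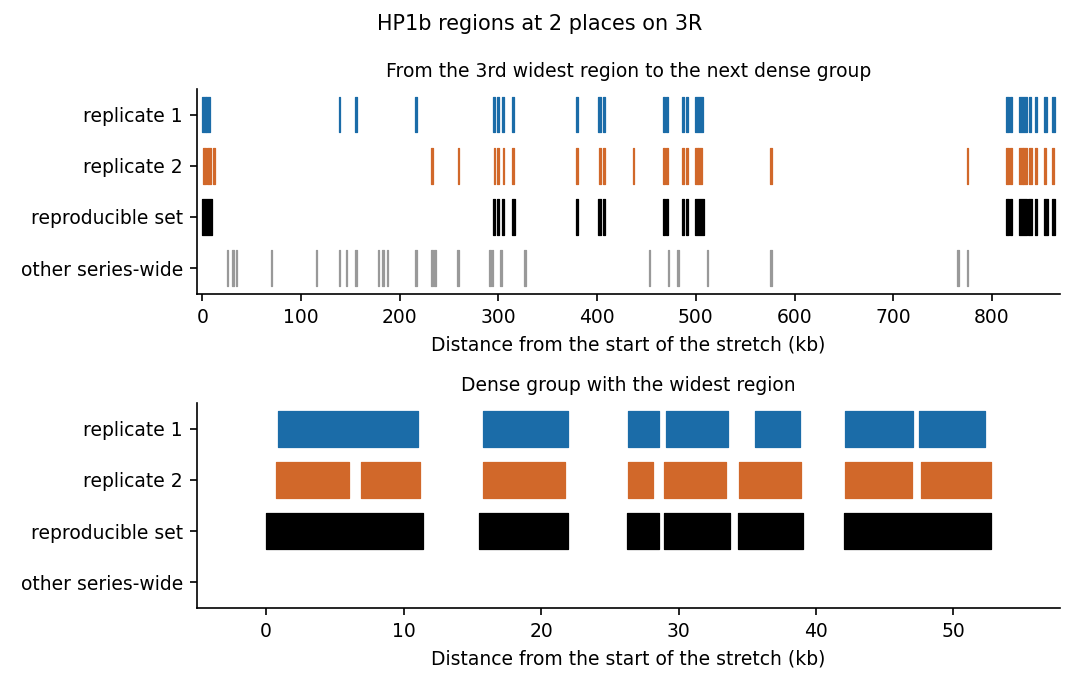
HP1b regions of replicate 1, replicate 2, the reproducible set and the other series-wide regions (rows) at 2 places on 3R, with the distance in kb from the start of each stretch on the x axis and each bar drawn to its width. The upper panel spans 864 kb with the 285 kb and 307 kb runs of the reproducible set, and the lower panel shows the dense group of 52.7 kb in which the 6 reproducible regions cover 76.6%.

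The same measures were taken on 2L, 3L and X without the 2 Mb at their centromeric ends. All arms come from the same 2 libraries, so the design allows no test between them and the values are set side by side. Cover was 8.47% ± 0.707 on 3R, 8.15% ± 0.869 on 2L, 8.71% ± 1.01 on 3L and 12.1% ± 1.42 on X (SD, n = 2 each). The replicate values of the 3 autosomal arms overlapped, and both values of X, 13.1% and 11.0%, lay above all of them. Median gaps were 9.75 kb ± 1.21 on 3R, 9.50 kb ± 0.226 on 2L, 10.3 kb ± 0.857 on 3L and 7.13 kb ± 0.264 on X (SD, n = 2 each). The share of replicate 1 regions with a partner was 79.8% on 3R, 79.1% on 2L, 76.9% on 3L and 75.8% on X. For replicate 2 regions it was 87.5% on 3R, 89.3% on 2L, 87.4% on 3L and 87.5% on X. The reproducible set made up 49.9% of the series-wide regions on 3R, 49.3% on 2L, 48.2% on 3L and 46.8% on X, with overlapping Wilson intervals on all 4. In the replicate lists, grouped by the same rule, dense groups held 22.3% ± 0.0905 of the regions on 3R, 30.2% ± 4.02 on 2L, 20.6% ± 2.25 on 3L and 38.6% ± 4.67 on X (SD, n = 2 each). In the reproducible set they held 17.1% on 3R, 25.7% on 2L, 16.4% on 3L and 27.4% on X. The longest empty run of the reproducible set was 335 kb on 3R, 493 kb on 2L, 452 kb on 3L and 271 kb on X. Runs of 100 kb or more made up 42.9% of 3R, 45.5% of 2L, 36.6% of 3L and 31.2% of X in that set.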

How the data were processed

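HP1b ChIP libraries (2) and Input libraries (2) were grouped by their titles. Per the submitters' processing notes, the mapper was Bowtie 0.12.7. Per the file headers, positions refer to FlyBase release 5. Not given in the sources used here are the region caller, its threshold, how the series-wide list was built and what the deposited score of each region measures. The Input libraries have no list in this work. Overlap, width, gap (next start minus end), cover over the header's arm length, dense groups (at least 5 regions, gaps of at most 10 kb) and empty runs (at least 100 kb) came from scripts in Python 3.11.15 (scipy 1.17.1, pandas 2.3.3, numpy 2.4.6), and matplotlib 3.10.9 drew the plots. The procedures recovered all planted overlaps, groups and runs when tested on simulated data. The region set and lists were chosen with earlier results of these data known. Named regions were the 10 strongest and 5 widest of the reproducible set, its 5 longest runs and 5 largest groups (here 6, by a tie at 7 regions), the 3 strongest regions in 1 replicate or in neither, the 5 largest score differences and the 3 most and least covered windows; other named features were chosen after their values were seen. No gene or sequence is given, because the gene table used here follows release 6.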

Additional observations from a re-analysis of the deposited data

How the results depend on the processing

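Of 48 recomputed values, 28 stayed within the 95% interval, the replicate SD or 1.5 times the count reported, and 20 moved beyond it; none involved a test. With an overlap of 50% of both regions, the share of replicate 2 regions with a partner was 83.4% and the reproducible share of the series-wide list 47.1%. With the 50% of each list that scored highest, these were 90.3% and 53.0%, and the median width was 2467 bp. Mean cover was then 4.93% and the median gap 23.2 kb, since fewer regions remain. Requiring series-wide regions as wide as the narrowest replicate region gave a reproducible share of 59.4%. The reproducible set in place of the replicates gave a median width of 2521 bp and a gap of 11.6 kb, and the whole series-wide list gave 2086 bp, 5.82 kb and a cover of 13.4%. Leaving out a replicate put cover between 7.97% and 8.97%, the width between 2149 and 2200 bp and the gap between 8.90 and 10.6 kb. With n = 2 each replicate always lies within the replicate SD of the mean. These values of cover, width and gap were thus bound to count among the 28, and they show nothing about stability. The 22 dense groups were 34 or 35 in single replicates, 99 in the whole series-wide list, 4 with gaps of at most 5 kb and 46 with gaps up to 20 kb, so their number depends on the definition. The 66 long runs were 55 to 58 in single replicates, 33 in the whole series-wide list and 13 at 200 kb or more. A boundary at 1 Mb or 4 Mb and the score correlation under 2 other pairings stayed within the limits named above. No paired analysis was possible because Input regions are not used here, so ChIP and Input values cannot be paired. Depth is unknown, so a missing partner cannot be told apart from a region under the calling threshold.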
